A study of Drosophila melanogaster with 3 samples.

Results

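The 10 genes described here act in the germline of Drosophila melanogaster and in its piRNA pathway: vas, nos, osk, aub, piwi, AGO3, pgc, ovo, tud and gcl. They were taken by name and located in the Ensembl annotation of dm6, where nos is listed as nanos, out of 13945 protein-coding genes on the 6 chromosome arms 2L, 2R, 3L, 3R, 4 and X. Binding near them was read from chromatin immunoprecipitation followed by sequencing (ChIP-seq), which maps the DNA that a protein occupies. The protein was CG1647, a zinc finger protein, carried as a C-terminal fusion to GFP (eGFP in the library descriptions) by a transgenic line and pulled down through an antibody against GFP, although 1 label field names CG1647 itself as the antibody. Whole embryos of 0 to 24 h, with both sexes pooled, gave 3 biological replicates of this 1 group, CG1647-GFP. No second genotype, treatment or stage was part of the series, so values are set beside those of all other genes and between replicates.

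Germ cells form at the posterior pole of the fly embryo, around germ plasm that is made in the ovary. Oskar builds this germ plasm, Vasa and Tudor are parts of it, and Nanos, Pgc and Germ cell-less act in the pole cells that bud from it. The piRNA pathway silences transposons in germ cells with small RNAs bound to the Argonaute proteins Piwi, Aubergine and AGO3. Germ cells are a small part of a whole embryo, and these data do not say in which cells a site was occupied.

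Each replicate came with its own list of candidate peaks, the pooled reads of all 3 gave another, and a retained list held 3123 peaks past the authors' threshold on the irreproducible discovery rate (IDR). The candidate lists held 19204 peaks for the pooled reads and 30000, 17977 and 30000 for replicates 1, 2 and 3, and they include background. Each peak has a signal value from the authors' peak caller and a summit, the base where the signal is highest. Signal is used here only within a list, mostly as a rank, with rank 1 for the highest. The retained peaks were exactly the 3123 pooled peaks of highest signal. The limit thus lay at a pooled signal of 126. A summit is called in reach of a gene if it lies in the gene or within 1000 bp of one of its transcript starts. Read depth is unknown for these lists.

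Of the 10 genes, 2 had a retained summit in reach, nos and gcl. The background was 2975 of 13945 protein-coding genes, or 21.3%, so the share among the germline genes was close to that of genes in general. Both summits also lay within 500 bp of a transcript start, which held for 16.2% of protein-coding genes. The other 8 genes, vas, osk, aub, piwi, AGO3, pgc, ovo and tud, had 0 retained summits in reach. In the pooled list 8 of the 10 genes had a candidate in reach, against 59.4% of protein-coding genes. AGO3 and pgc had none. Over the 8 genes with a candidate, the best pooled signal had a median of 91.7, and over the 8280 protein-coding genes with one it was 93.8.

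The sequences under 4 of the upstream summits, 2 at nos and 1 each at vas and piwi, are given first, because they show what these sites hold. The second nos stretch is under a candidate of rank 12706 that was found only in replicate 3. That candidate lay 178 bp from the nos start and 43 bp from a start of CG11779, a gene on the opposite strand. The sequences are from the RefSeq copy of the assembly that dm6 names, release 6, on the forward strand. Stretches annotated as untranslated region are left out beyond 30 bases at the nos summit. Capitals mark a match to CGATA, a word bound by the boundary factor BEAF-32, or to the TATA box TATAAA, on either strand.
nos, summit of the retained peak, chr3R:19156840-19156869: ggtggctcgtgCGATAgttcgttttgtcgg
nos, candidate summit nearer to the start, not retained, chr3R:19157018-19157159: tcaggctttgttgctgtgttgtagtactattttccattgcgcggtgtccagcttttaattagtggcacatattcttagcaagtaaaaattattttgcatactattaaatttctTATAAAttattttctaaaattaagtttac
vas, upstream of the start, chr2L:15061464-15061655: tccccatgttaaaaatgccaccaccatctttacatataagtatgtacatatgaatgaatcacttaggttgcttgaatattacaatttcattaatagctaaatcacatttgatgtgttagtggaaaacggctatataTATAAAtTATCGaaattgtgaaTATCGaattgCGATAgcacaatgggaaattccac
piwi, upstream of the start, chr2L:10987570-10987769: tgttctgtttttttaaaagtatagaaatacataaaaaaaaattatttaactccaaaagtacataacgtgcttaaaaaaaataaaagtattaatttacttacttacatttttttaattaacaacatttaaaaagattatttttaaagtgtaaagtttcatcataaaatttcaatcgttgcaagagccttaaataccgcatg

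**Figure D1:**
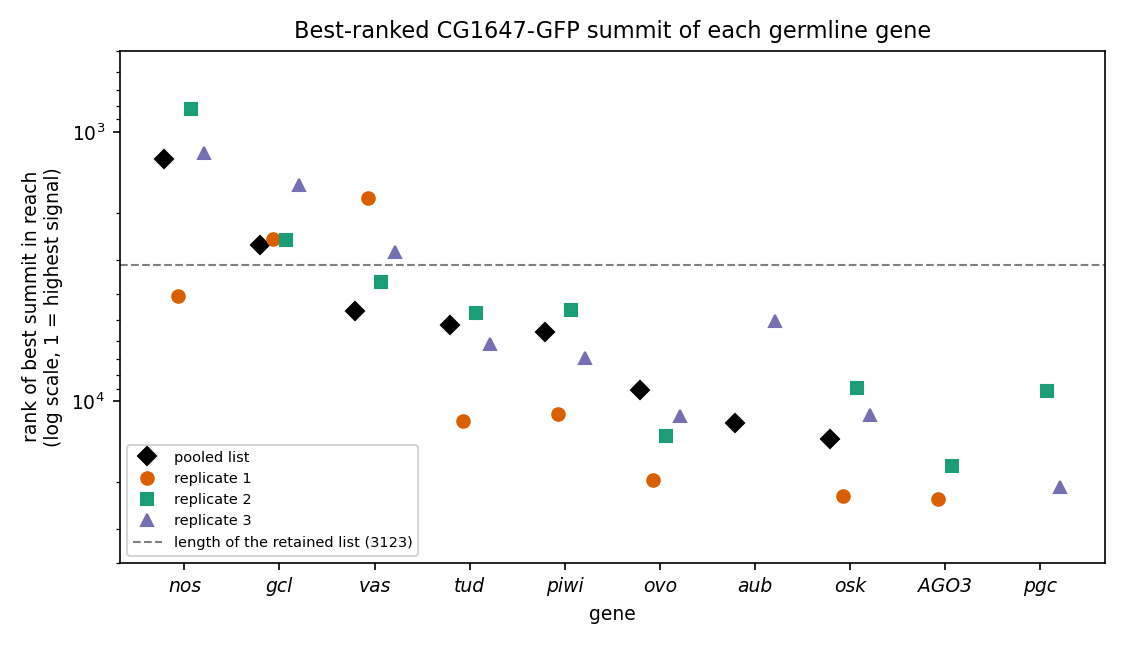
Rank of the best summit in reach of each gene (y axis, log scale, 1 is the highest signal) in the pooled list and in replicates 1, 2 and 3, with genes ordered by pooled rank; a missing point means no candidate in reach, and the dashed line is at 3123. Only nos and gcl lie above the line in the pooled list, while nos is below it in replicate 1 and vas is above it in replicates 1 and 3.

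The germ plasm and germ cell genes held both retained sites. The nos gene, which encodes a translational repressor needed in pole cells and for the posterior body pattern, spans 19157238 to 19160202 on 3R, on the forward strand. Its retained summit lay at 19156855, 383 bp upstream of its start, with a pooled signal of 212, a −log10 q of 3.58 and rank 1265. At this site the rank was 4064 in replicate 1, 825 in replicate 2 and 1197 in replicate 3, with signals of 36.2, 111 and 70.7. The summits of the replicates were within 14 bp of the pooled one, so the position was shared, but replicate 1 ranked the site outside its 3123 best peaks. A second nos candidate lay in an intron at 19158087, 849 bp inside the gene, with a pooled rank of 3903, and it was found in all 3 replicates. One more, at 19157060 and 178 bp upstream of the start, had a pooled rank of 12706 and was found only in replicate 3.

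The gcl gene, whose product promotes pole cell formation, spans 8724258 to 8728999 on 2R. Its retained summit lay at 8723922, 336 bp upstream of its start, with a pooled signal of 139, a −log10 q of 2.02 and rank 2645. The site had rank 2515 in replicate 2 and rank 1581 in replicate 3, and replicate 1 had no candidate summit within 200 bp of it. The best candidate of replicate 1 in reach of gcl was at 8723602, 656 bp upstream of the start, with rank 2504. All replicates thus had a peak upstream of gcl among their best, but that of replicate 1 was at another position. Another 4 pooled candidates in reach of gcl ranked from 6966 to 13274, of which 2 were upstream, 1 in a gcl coding exon and 1 in the 3′ UTR. The upstream one of rank 8280 lay in a coding exon of the neighbouring gene CG14767, 172 bp from its start.

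Both retained summits lay closer to the start of another gene than to that of the germline gene. CG11779 is on the opposite strand, and the nos summit lay 43 bp from the nearest of its starts and inside a 5′ UTR of its longer transcripts. The annotated span of CG11779 also runs over the nos start. The nos intron candidate at 19158087 thus lay in an intron of CG11779 too. So did the nos candidate at 19157060, which was 43 bp from another start of CG11779 and 178 bp from that of nos. CG14767 is transcribed away from gcl, and the gcl summit lay 83 bp upstream of its start. The start of snoRNA:gcl-a, on the strand of gcl, was 983 bp from the summit. The same held for an unretained summit upstream of piwi, 250 bp from the start of piwi and 136 bp from that of CG12253. Of the 6 germline genes with a pooled summit within 1000 bp of a start, the best such summit was nearer to another coding gene in 3. The background was 26.1% of the 7379 protein-coding genes with such a summit, and 31.7% of the 2608 genes with a retained one. With 2 retained sites, the counts cannot show whether germline genes differ from other genes in this. A peak in such a shared upstream region cannot be assigned to one of its genes from position alone.

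**Figure D2:**
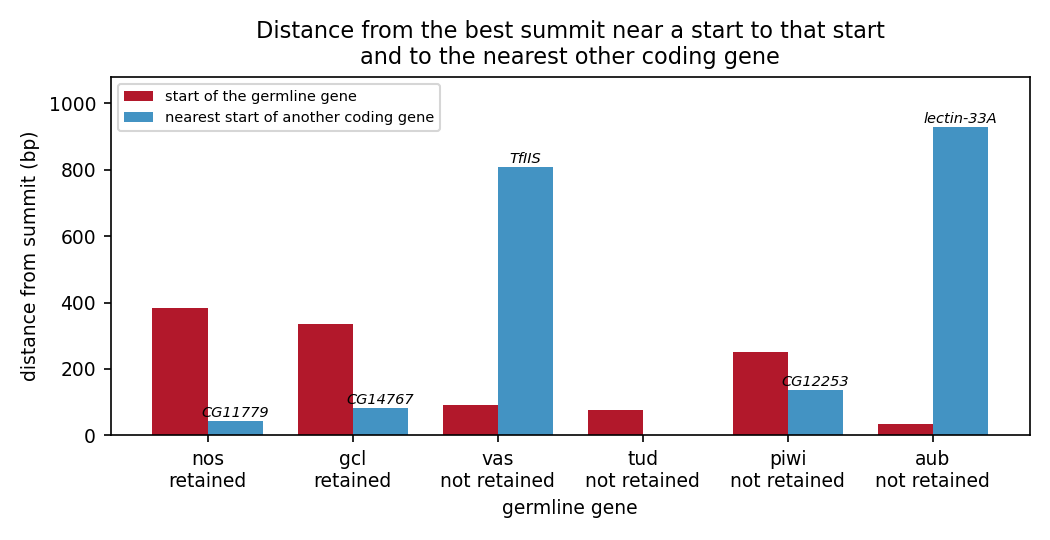
Distance in bp from the best pooled summit within 1000 bp of a start to that start (red) and to the nearest start of another coding gene within 1000 bp (blue, with its name), for the 6 germline genes that have such a summit; solo, which shares the start of vas, is left out. For nos, gcl and piwi the blue bar is the shorter one, and tud has no other coding start in the window.

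The remaining germ plasm and germ cell genes, osk and pgc, had weak candidates. The osk gene (3R, 8935126 to 8938395) organises germ plasm assembly, and its single pooled candidate was in a coding exon 1699 bp from the start, with a signal of 60.1 and rank 13843. That candidate also lay in a noncoding exon of lncRNA:osk, a gene of the same strand, 1109 bp from its start. The best osk ranks were 22516, 8991 and 11310 in replicates 1, 2 and 3. Within 200 bp of the pooled osk summit, at 8936825, only replicate 2 had a candidate. The best candidates of replicates 1 and 3, at 8937041 and 8937067, lay close to each other and just beyond that distance. The pgc gene (2R, 22330200 to 22332813), whose small protein holds back transcription in pole cells, had 0 candidates in the pooled list and in replicate 1. Replicate 2 had a pgc candidate of rank 9185 in the 5′ UTR and replicate 3 one of rank 20965 in an intron.

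Vasa is an RNA helicase and Tudor a scaffold protein, both of the germ plasm and of the nuage, the perinuclear granules where piRNAs act. The vas gene (2L, 15061656 to 15074311) had 7 pooled candidates in reach, the most of the 10 genes, and 0 of them were retained. The best was 92 bp upstream of its start, at 15061564, with a signal of 99.4 and rank 4624. This vas site had rank 3617 in replicate 2 and 2798 in replicate 3, and replicate 1 had no candidate within 200 bp of it. It is therefore inside the 3123 best peaks in 1 of 3 replicates. The start is shared with solo, a gene of the same strand, so the site cannot be assigned to vas alone.

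Other candidates in reach of vas lay near or inside neighbouring or nested genes. A candidate of rank 5283 lay 757 bp upstream of vas and 142 bp upstream of TfIIS, which encodes a transcription elongation factor and is transcribed the other way. A candidate of rank 5528 lay in a vas intron, 2 bp inside vig, a gene nested there on the opposite strand. At that site replicate 1 had rank 1765, its best in reach of vas, while replicates 2 and 3 had ranks 6311 and 6953. The best vas rank of replicate 1 and those of the other replicates thus came from different sites, more than 6 kb apart. The remaining 4 candidates, of ranks 8370 to 17275, were also in vas introns and within vig, and that of rank 8370 was 3001 bp from the vas start and 3421 bp from the vig start. The tud gene (2R, 21183322 to 21192913) had its best candidate 75 bp upstream of its start, with a signal of 92.9 and rank 5248. The starts of tRNA:Gly-GCC-1-13 and tRNA:Trp-CCA-2-6 lay 391 and 498 bp from this summit. The tud site had ranks 23595, 4730 and 6128 in replicates 1, 2 and 3, so replicate 1 again ranked it far lower than the other two. Its second candidate was in a coding exon at rank 16462.

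**Figure D3:**
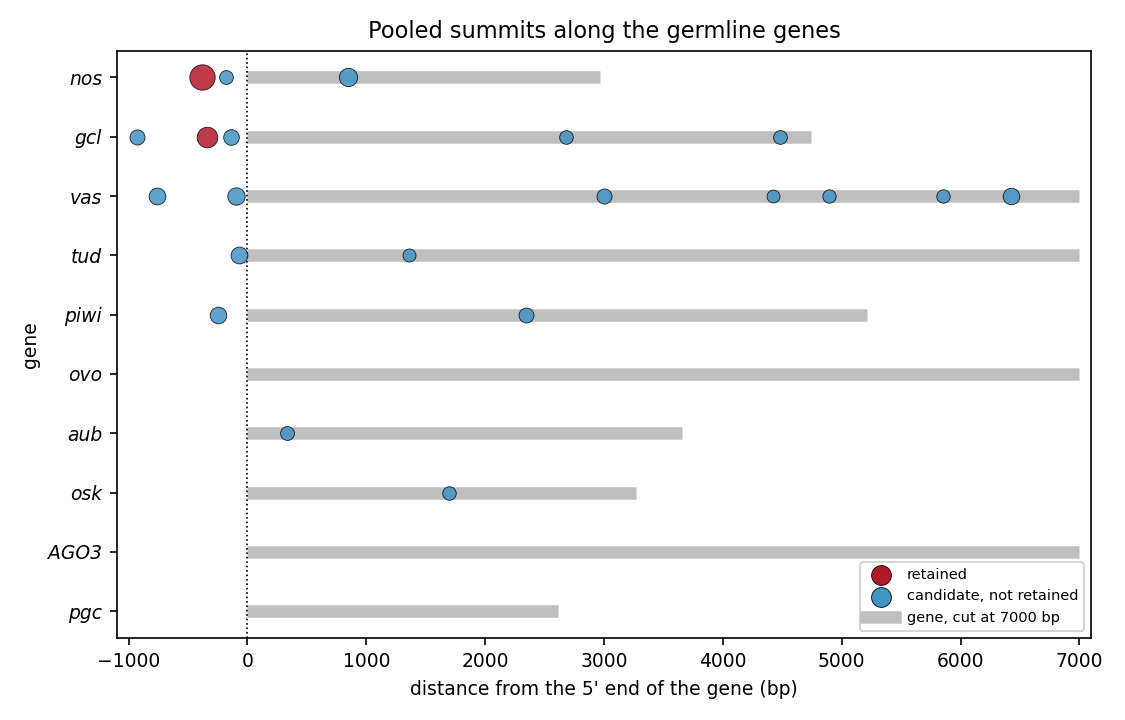
Position of each pooled summit in reach (x axis, distance in bp from the gene's 5′ end, negative is upstream), with 1 row per gene, the gene as a grey bar cut at 7000 bp, and the area of a point proportional to its signal. The 2 retained summits (red) are upstream of nos and gcl, the best candidates of vas, tud and piwi are also upstream and not retained (blue), and the ovo summits lie beyond the range shown, and AGO3 and pgc have no pooled summit.

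The piRNA Argonautes had no retained summit in reach. The piwi gene (2L, 10982205 to 10987420) encodes the nuclear Argonaute that guides transcriptional silencing, and its best candidate was 250 bp upstream of its start at 10987670, with a signal of 90.5 and rank 5526. Replicates 1, 2 and 3 ranked this piwi site 11180, 4615 and 6928. A second piwi candidate, of rank 8488, was in a coding exon. The aub gene (2L, 10997819 to 11001476) encodes the Argonaute that cleaves transposon transcripts in the nuage, and its 1 pooled candidate, of signal 63.5 and rank 12051, lay in an intron 34 bp upstream of the inner of its 2 starts. That aub candidate was found in replicate 3, at rank 5048, and replicates 1 and 2 had 0 candidates anywhere in reach of aub. On this evidence aub was seen in 1 of 3 replicates.

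AGO3, the partner of Aubergine in piRNA amplification, was the only gene of the 10 with a span over 100 kb and yet had 0 pooled candidates. It covers 135 kb on 3L, from 23554593 to 23689640, and its only candidates were 1 in replicate 1, of rank 23257, and 1 in replicate 2, of rank 17493, at different places in its introns. Within 250 kb on either side of the gene there was 1 pooled candidate in 635 kb, or 0.157 per 100 kb, against 14.3 per 100 kb over the 6 arms. The same 635 kb held 10, 6 and 2 candidates in replicates 1, 2 and 3. Candidates were thus few over the whole stretch, which holds 8 protein-coding genes, and not in AGO3 alone. An unbound gene and a poorly measured one cannot be told apart here.

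The transcription factor gene ovo, which is needed in the female germline and has a second product that shapes the larval epidermis, had 2 pooled candidates in its span on X (5048273 to 5070929). They ranked 9083, in a coding exon, and 16261, in an intron, and both were found in all 3 replicates. The exon summit of each replicate lay within 6 bp of the pooled one, and the intron summits lay 8, 110 and 17 bp away in replicates 1, 2 and 3. A retained summit lay just outside the window, at 5046785 and 1488 bp upstream of the first ovo start, with a signal of 135 and rank 2798. Its ranks were 5904, 2406 and 2474 in replicates 1, 2 and 3, so here too replicate 1 ranked it outside its 3123 best peaks. With a window of 2000 bp ovo would be in reach too, giving 3 of 10 genes against 24.5% of protein-coding genes.

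The ranks order the genes as nos, gcl, vas, tud, piwi, ovo, aub and osk by best pooled signal, with AGO3 and pgc unplaced. Only some steps in this order exceed the spread over replicates. The ranges of the replicate ranks overlapped between nos and gcl, between gcl and vas, between tud and piwi, between osk and AGO3, and between AGO3 and pgc. The ranges did not overlap between vas and tud, or between piwi and ovo. AGO3 and pgc had ranks in only 2 replicates each. The ranges use the best rank anywhere in reach. Those of gcl, vas, tud, ovo, osk, AGO3 and pgc therefore mix summits more than 200 bp apart and are not the spread at 1 site. For tud, replicate 1 entered with rank 11917 in a coding exon, while its rank at the upstream site was 23595. For aub a single replicate rank was at hand, so no range could be given.

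The replicates were also compared by their own 3123 best peaks. Replicate 1 had such a peak in reach of vas and gcl, replicate 2 of nos and gcl, and replicate 3 of vas, nos and gcl. That is 2.33 ± 0.577 of the 10 genes (SD, n = 3), against 20.9% ± 0.808 of protein-coding genes (SD, n = 3) made up of 20.0% for replicate 1 and 21.4% for each of replicates 2 and 3. The other 7 genes had none in any replicate. Counting retained summits only where both of 2 replicates held them among their best peaks, nos and gcl stayed with replicates 2 and 3, and 0 of 10 genes stayed with either pair that includes replicate 1. The background was then 16.2% without replicate 1, 14.9% without replicate 2 and 15.0% without replicate 3.

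Across all 10 genes there were 23 pooled summits in reach, of which 21 were not retained. Of these 21, 9 had a candidate summit within 200 bp in all 3 replicates, or 42.9%, against 32.9% of the 16081 unretained pooled candidates of the genome. Another 9 were found in 2 replicates and 3 in 1. Within 500 bp of a start there were 8 pooled summits, at 6 genes, and all 8 lay upstream of the nearest start. The same share over all protein-coding genes was not computed, and nos and gcl gave more than 1 summit each. No trait of the germline genes can be read from this count. From each gene to the nearest retained summit, measured from the closest start, the median distance was 3.95 kb over the 10 genes and 10.1 kb over all protein-coding genes. Some of these nearest sites belonged to other genes, named here after their values were seen: the site 2676 bp from aub lay 1 bp from a start of RpL9, a ribosomal protein gene, and that 3152 bp from osk lay 78 bp from a start of pyd. For AGO3 the nearest was the Chro site of rank 8, 676 kb away.

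The words under the summits were compared with those of all summits, over 200 bp. The words searched, on both strands, were TATCGATA (the DNA replication-related element, DRE), CGATA (which the DRE contains), GGTCACAC (the core of the M1BP site), CATCNCTA (core promoter motif 7), CACGTG (E-box), GAGAG (GAGA repeat), AGNNGGCGC (CTCF core), CAGGTA (Zelda) and TATAAA. Of the 23 windows of the germline genes, 11 held at least 1 of these, against 71.5% of the 3123 retained windows and 61.4% of the unretained ones. CGATA was in 5 of 23, against 32.7% of retained and 24.2% of unretained windows. The nos window held CGATA 4 bp from the summit, as printed above, and again 34 bp from it. The vas window held it 3 times, 43, 58 and 68 bp from the summit, beside a TATA box. The printed piwi window held 0 of the words and had a GC content of 20.5%, the lowest of the 23.

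GGTCACAC was in 2 of 23 windows, both upstream of gcl, against 3.17% of retained and 1.62% of unretained windows. TATAAA was in 4 of 23, against 30.5% of retained and 19.7% of unretained windows. The DRE, GAGAG and the CTCF core were in 0 of 23, against 4.90%, 23.9% and 3.23% of retained windows. Of unretained windows 1.84%, 24.8% and 3.24% held them. CACGTG was in 2 of 23, CATCNCTA in 1 and CAGGTA in 1, where 2.53%, 4.90% and 4.29% of retained windows held them. Among unretained windows the shares were 2.79%, 2.21% and 4.98%. The median GC content was 40.5% over the 23 windows, 37.0% over retained and 44.5% over unretained windows. The windows of a gene can overlap, so they are not independent of each other.

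Genes whose ranks were most like those of the bound pair were found over 4 lists, the pooled list and the 3 replicates, by the sum of absolute differences in log10 rank within 500 bp of a start. For nos the first was CG11779, which has the same peak, and the next was Eogt, with a pooled rank of 1082 and ranks of 3400, 751 and 1225 in replicates 1, 2 and 3. For gcl they were Ythdf and bai, which share a pooled rank of 2553 and ranks of 9401, 2678 and 1599. The gcl rank used here for replicate 1 was 9449, from an intron summit 217 bp inside the gene. Its candidate of rank 2504 lay beyond 500 bp. The genes were chosen by these same ranks, so their likeness in any replicate follows from the choice.

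A wider list of 57 genes of the germline and the piRNA pathway was read in the same way. Of these, 18 had a retained summit in reach, or 31.6%, against the background of 21.3%, and 9 were bound within 500 bp of a start, or 15.8%, against 16.2%. Gene length bears on the first count, because long genes offer more room. Of the 45 listed genes under 10 kb, 22.2% had a retained summit in reach, against 18.1% of such protein-coding genes, and of the 12 listed genes of 10 kb or more 66.7% did, against 41.0%. Of the 10 germline genes, 7 were under 10 kb, with 2 in reach, and 3 were longer, with 0 in reach. The list was drawn up with earlier results of these data known and no test was made on it.

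**Figure D4:**
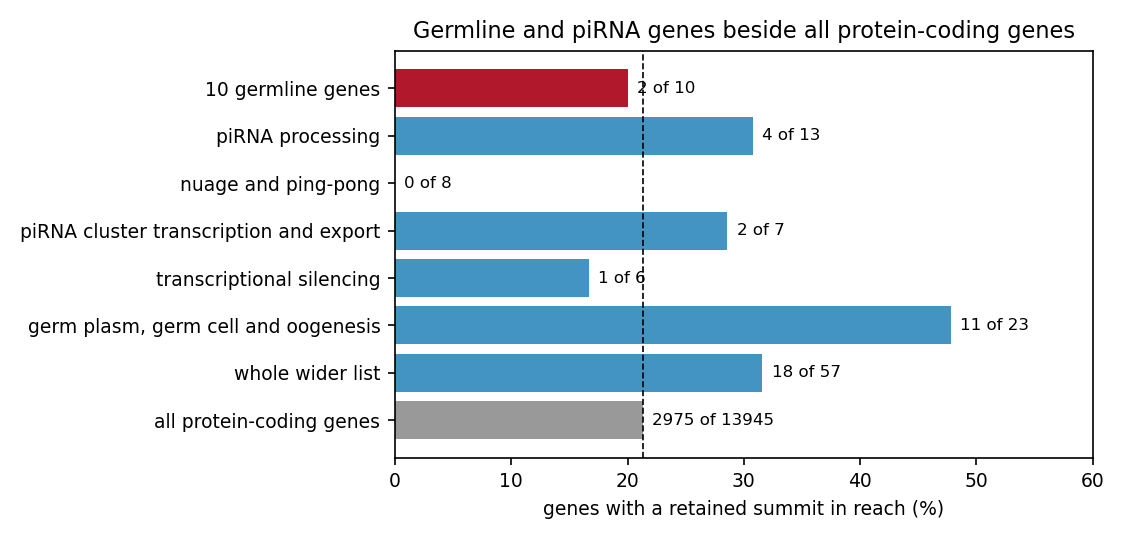
Percent of genes with a retained summit in reach (x axis) for the 10 germline genes (red), the groups of the wider list and the whole wider list (blue), and all protein-coding genes (grey, also the dashed line at 21.3%), with counts beside the bars. The 10 genes are close to the line, while the group of germ plasm, germ cell and oogenesis genes, which holds 11 of the 12 long genes, is at 11 of 23.

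Genes that make piRNAs had 4 of 13 in reach. All 13 were under 10 kb, where the background was 18.1% of protein-coding genes. The strongest was papi, a Tudor domain protein of the mitochondrial surface, with a signal of 481 and rank 222 in an intron 273 bp from a start, and its ranks were 337, 218 and 178 in replicates 1, 2 and 3. The others were Hen1, the piRNA methyltransferase (signal 175), nbr, a trimming exonuclease (150), and armi, an RNA helicase (142). Their summits were closer to the start of another coding gene, at 157 bp from bsd for Hen1, 29 bp from Noc2 for nbr and 157 bp from eIF5B for armi. Among the 9 without one, mino had the highest candidate, at rank 4427. Nuage and ping-pong genes, of which 7 were under 10 kb, had 0 of 8 in reach, with tapas highest at rank 3625. The background was 21.3% of all protein-coding genes, and 8 genes are too few to show a difference from it.

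Genes for the transcription and export of piRNA clusters had 2 of 7 in reach, boot (signal 494, rank 207) and cuff (signal 139, rank 2662), and the cuff summit was 151 bp from the start of CG13185 and 331 bp from that of cuff. The highest of the others was del, at rank 3450. Of the genes that act in transcriptional silencing 1 of 6 was in reach, wde, a partner of the histone methyltransferase Eggless. Its intronic summit had a signal of 659, the highest of the wider list, and ranks of 100, 93 and 127 in replicates 1, 2 and 3. The arx candidate was next in that group, at rank 12772. All genes of both groups were under 10 kb, where the background was 18.1% of protein-coding genes.

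The genes of germ plasm, germ cells and oogenesis had 11 of 23 in reach. Under 10 kb it was 3 of 12, against 18.1% of such protein-coding genes, and at 10 kb or more 8 of 11, against 41.0%. By signal the 11 in reach were Tre1 (506), a receptor that guides germ cell migration, brat (401), bgcn (385), hts (313), Sxl (276), spir (271), wun (246), orb (230), pum (213), smg (185) and capu (127). Many of these also act outside the germline, such as brat and pum in the nervous system and Sxl in sex determination. The orb summit lay 10 bp from the start of Cdc16 and 335 bp from that of orb. The highest candidate that was not retained was that of exu, at rank 3885. Over the whole wider list, 5 of the 18 genes in reach had a closer coding start of another gene within 1000 bp of their best retained summit. Starts farther than that from a summit were not searched, so for summits deep in a gene, such as that of spir at 15275 bp, a closer start could be missed. The closest background was 31.7% of the 2608 genes with a retained summit within 1000 bp of a start. Of the 18, 14 had a peak in reach among the 3123 best of all 3 replicates. The other 4, armi, nbr, cuff and capu, had one in 2 replicates. That share was not computed over all protein-coding genes, so the 14 of 18 has no background.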

How the data were processed

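CG1647-GFP was measured by ChIP-seq in 3 biological replicates of 1 transgenic line; per the labels, chromatin was fragmented by sonication to 200 to 800 bp. The authors deposited dm6 peak lists with a signal value, a −log10 q-value and a summit per peak. Per the deposited notes on each file, a replicate's candidate peaks derive from its alignment and 1 further file common to all lists, the pooled candidates from the 3 alignments and that file, and all include background for the IDR step. Which programs and versions aligned the reads and called the peaks, and the IDR threshold, are not given in the sources used. No read counts were used, so depth is unknown and its effect on ranks could not be assessed. The dm3 lists were not used, since no coordinates were converted.

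Summits were converted to positions counted from 1 and assigned to genes of Ensembl release 115 with Python 3.11.15, and the assignment was checked on simulated peaks. The name nos was taken as nanos and not as Nos, the nitric oxide synthase gene; 3 genes of the wider list differ in capital letters only. A site was found in a replicate where a candidate summit lay within 200 bp. No test was made, because the series has 1 group and the genes and lists were chosen with earlier results of these data known. Named genes were the 10 genes, genes at their retained summits, the 2 genes of most similar ranks for each bound gene, and from the wider list those in reach with the best other candidate per group. Genes named at unretained or more distant summits, or as neighbours of wider-list genes, fall outside this rule and were chosen after their values were seen. The split of genes at 10 kb and the distance to the nearest retained summit were chosen after seeing the data. Alternatives were other distances, midpoints, overlaps, transcript starts, a stricter list, each replicate left out or used alone, and a shorter motif window.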

Additional observations from a re-analysis of the deposited data

How the results depend on the processing

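Of 84 alternative values over 14 results, 72 stayed within 1.5 times the reported count or share or left the signal as it was. Many of these values were background shares or signals of single genes. Those moved less often than the counts of the 10 genes in reach or bound, which make up most of the changes. In the top 1561 retained peaks by signal, 1 of the 10 genes was in reach (nos), and 1 was bound within 500 bp, with backgrounds of 12.2% and 8.92%. Leaving out a replicate gave 0 to 2 genes in reach and 0 to 2 bound within 500 bp: 2 without replicate 1, and 0 without replicate 2 or without replicate 3, where 12.3%, 10.9% and 11.1% of protein-coding genes were bound within 500 bp. Within 200 bp of a start 0 genes were bound, against 11.9% of protein-coding genes, and within 500 bp in the best-ranked peaks of replicate 1 also 0, against 14.6%. With 2000 bp around starts the best ovo signal was 135, against 71.5, because a retained site upstream came into the window. A motif window of 100 bp left 7 of 23 windows with a match, against 11, being shorter. The wider list gave 13 to 16 genes in reach when a replicate was left out, an alternative chosen after seeing the data, against 18. Leaving out a replicate kept only the retained peaks that the other replicates held among their best, so these counts could only fall. The background in reach fell as well, from 21.3% to 16.2%, 14.9% and 15.0% without replicates 1, 2 and 3. AGO3 and pgc gave no pooled signal under any alternative, and osk and ovo gave none with the gene body left out. These missing signals are not among the 84 values, so the losses at osk and ovo are not counted as changes. No paired analysis was possible because there is 1 group. List lengths and depth differ or are unknown, so ranks between replicates are only roughly comparable.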
